A study of Mus musculus with 24 samples.

Results

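Mice given 3 courses of tylosin (PAT3) were compared with mice given no antibiotic (Control) for immune gene expression in the terminal ileum at week 7 of life. Samples were taken by their treatment label, and the comparison held 17 of the 24 samples of the series, 10 PAT3 mice (4 male, 6 female) and 7 Control mice (4 male, 3 female). The mice of another group, PAT1, which received a single course, were left out of the contrast and entered only the estimate of the spread. All mice were C57BL/6. PAT stands for pulsed antibiotic treatment: PAT3 mice received tylosin, a macrolide antibiotic, first by way of the treated dam while nursing and then drank it in 2 further courses after weaning, whereas Control mice were given water without the drug. Week 7 lay after the last course. Treatment was assigned by litter and mice were caged with others of their own group and sex, so effects of litter and cage cannot be told apart from that of treatment. The study asked how such early-life exposure alters the host.

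The terminal ileum, the last stretch of the small intestine, is rich in immune tissue. Its epithelium is threaded by cytotoxic T cells, it transports IgA into the lumen, and its enterocytes can be induced to display antigen on major histocompatibility complex (MHC) class II. Much of this depends on signals from resident bacteria: interferon gamma from lymphocytes acts through the kinases Jak1 and Jak2 to switch on antigen presentation and chemokine genes, and Th17 cells and innate lymphoid cells secrete IL-17 and IL-22. Macrolides block the ribosome of bacteria and reshape the community that provides these signals.

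Expression was read with the NanoString nCounter mouse immunology panel, in which colour-coded probes are counted on single RNA molecules without amplification. Values are log2 normalized counts for 547 genes, and a difference of 1 is a 2-fold change. Totals ran from 445534 to 750256 counts in Control and from 265500 to 668511 in PAT3, and did not differ beyond the spread between mice (two-sided exact permutation test on log2 totals, p = 0.353). The median over all genes lay 0.19 lower in PAT3 (exact permutation p = 0.000926), and the top 5 genes of a sample held 33.3% of its counts in PAT3 against 38.7% in Control (exact permutation p = 0.00113). PAT3 replicate 7 was the shallowest sample. It and PAT3 replicate 5, whose mean over the epithelial genes listed below was the lowest of the 10 (9.94, next 10.76), stood apart from the other PAT3 mice. Both were female.

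In PAT3 ileum, 6 of 9 MHC class II genes, 14 of 27 genes of cytotoxic lymphocytes and 9 of 15 genes of the interferon gamma response were lower than in Control. The lists share members, so these counts are not separate. Ciita is in the class II and interferon gamma lists, and Tbx21 in the interferon gamma and cytotoxic lists. Nos2 is in the interferon gamma list and in that of enzymes making reactive oxygen or nitrogen. Of 547 genes, 174 (31.8%) were called, that is, had an adjusted p under 0.05 by limma with Benjamini-Hochberg adjustment over all genes. Of these, 98 (17.9%) were lower and 76 (13.9%) higher in PAT3. Falls had a median of -0.97 on the log2 scale and 47 of them reached 2-fold, whereas rises had a median of 0.58 and 5 reached 2-fold. The 3 genes that fell more than 4-fold were Nos2, Gzma and Gzmb. For 40 genes (7.31%) every PAT3 value lay below every Control value, and for 11 (2.01%) every PAT3 value lay above. All 51 of these were called.

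The balance of rises and falls depended on scaling. When each sample was re-centred on its own median, 152 genes were higher and 78 lower, and quantile normalization gave 110 higher and 85 lower. Each change below is relative to the deposited normalization, and re-centring adds 0.19 to it. With PAT3 replicates 5 and 7 both left out, 224 genes were called, of which 115 were higher and 109 lower. Without replicate 7 alone 211 genes were called, and 30 genes instead of 11 lay wholly above Control. Of the 117 called genes named below, 69 were not called in females alone and 39 not in males alone, fits with fewer mice, and these losses are not repeated for each gene. Under all other alternatives 82 kept their call, and 21 lost it by the test of the study's methods (aov with TukeyHSD).

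**Figure D1:**
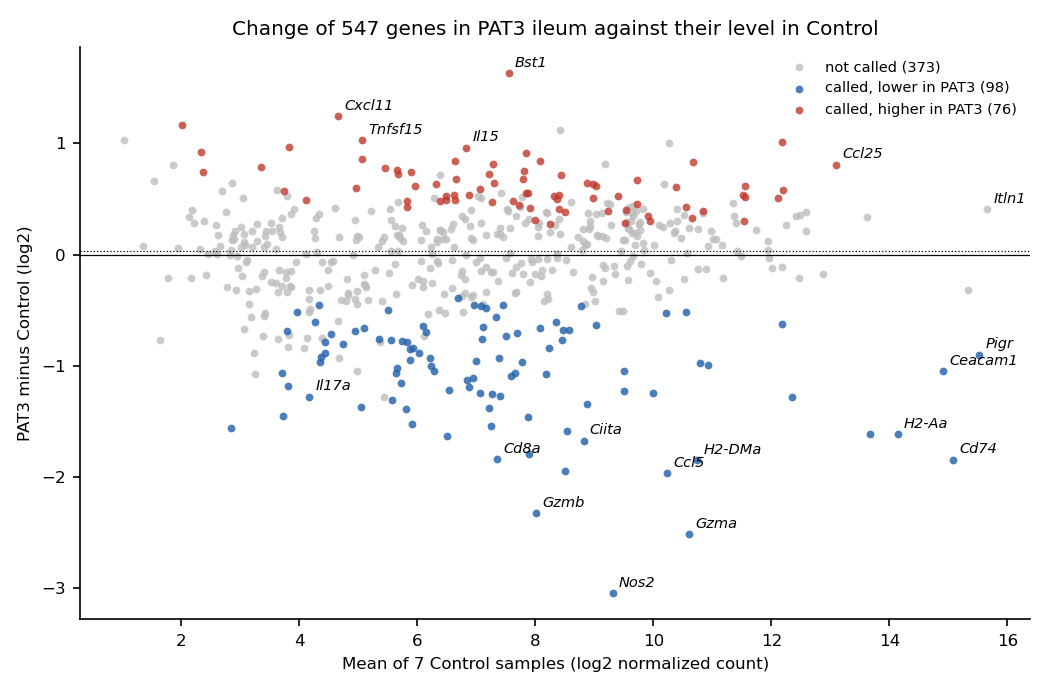
Each point is 1 of 547 genes, with its mean in the 7 Control samples on the x axis (log2 normalized count) and PAT3 minus Control on the y axis (log2). Blue points are the 98 genes called lower and red points the 76 called higher; the dotted line is the median change of all genes (0.03). Falls reach -3.05 for Nos2, while the highest point, Bst1, is at 1.63.

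MHC class II genes fell together. Of 9 genes of the pathway in the table, 6 were called, all of them lower in PAT3, and the values of all 6 lay wholly below those of Control. The median change of the 9 genes was -1.61, against 0.03 over all 547 genes, and was -1.42 after re-centring. Cd74, the invariant chain that guards the peptide groove of new class II molecules, ranged from 14.69 to 15.49 in Control (median 15.05) and from 12.73 to 13.68 in PAT3 (median 13.19). Its fall was -1.85 (SE 0.15, adjusted p = 1.41e-09), or 3.59-fold. The chain genes of the classical molecules changed by similar amounts. H2-Aa lay between 13.83 and 14.83 in Control (median 13.98) and between 12.16 and 13.06 in PAT3 (median 12.44), a change of -1.62 (SE 0.19, adjusted p = 3.58e-07). H2-Ab1 lay between 13.35 and 14.17 in Control and between 11.54 and 12.49 in PAT3 (medians 13.55 and 12.01; -1.61, adjusted p = 1.68e-08), and H2-Eb1 between 12.24 and 12.57 and between 10.48 and 11.78 (medians 12.28 and 11.00; -1.28, adjusted p = 3.58e-07).

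H2-DMa, which encodes a chain of the molecule that loads peptide onto class II, spanned 10.45 to 11.15 in Control (median 10.64) and 8.42 to 9.43 in PAT3 (median 8.86), a fall of -1.85 (SE 0.15, adjusted p = 1.57e-09). Ciita, the transactivator on which transcription of the class II genes depends, spanned 8.45 to 9.22 in Control (median 8.80) and 6.64 to 7.78 in PAT3 (median 7.11), and fell by 1.67 on the log2 scale (SE 0.20, adjusted p = 6.32e-07). All 6 genes were past the threshold under all 31 alternatives. The remaining members were not called. They were H2-Ob (0.07, adjusted p = 0.909), which encodes a chain of a loading inhibitor known from B cells, H2-DMb2 (-0.35, adjusted p = 0.509) and the E alpha gene listed as H2-Ea-ps (0.32, adjusted p = 0.236). H2-Ea-ps was a low gene, with a mean log2 value below 5. In whole tissue, fewer cells of a type and less RNA per cell cannot be told apart. The summed normalized counts of 5 B cell markers ran from 173 to 676 in Control (median 226) and from 86.8 to 250 in PAT3 (median 116). Of these markers 1 was called lower and none was listed at 0. The sums of 3 macrophage markers ran from 891 to 1390 (median 974) and from 821 to 1252 (median 957), with none called. With the mean of the B cell list as a covariate, all 6 genes were past the threshold, but that list includes genes of other cells. The part of B cells and that of macrophages were not tested.

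The stretch upstream of class II genes is known for a shared set of boxes that Ciita acts through, of which the Y box is an inverted CCAAT motif. The 150 bases before the start of H2-Aa and H2-Eb1 are shown for that box (ctgattgg, in capitals), and those of Irf1, an interferon gamma responder that also fell, for its GAS element (TTCNNNGAA, in capitals), the gamma-activated site. They are from RefSeq (GRCm38.p6) and are written 5′ to 3′ on the gene's strand. H2-Aa lies on the minus strand at chr17:34287824-34287973, H2-Eb1 on the plus strand at chr17:34305717-34305866 and Irf1 on the plus strand at chr11:53769864-53770013.
H2-Aa: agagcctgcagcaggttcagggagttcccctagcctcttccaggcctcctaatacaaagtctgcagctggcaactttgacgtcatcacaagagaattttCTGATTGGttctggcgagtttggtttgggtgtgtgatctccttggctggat
H2-Eb1: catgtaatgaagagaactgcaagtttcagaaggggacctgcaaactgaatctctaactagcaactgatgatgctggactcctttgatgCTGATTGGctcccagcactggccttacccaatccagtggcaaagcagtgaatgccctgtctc
Irf1: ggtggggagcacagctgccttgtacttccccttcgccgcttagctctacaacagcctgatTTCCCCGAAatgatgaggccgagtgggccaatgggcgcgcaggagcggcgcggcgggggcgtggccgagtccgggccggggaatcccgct
Windows of 250 bases before to 50 after a start were given for 415 of the 547 genes. Searched on both strands, the 8 letters of the Y box (CTGATTGG) occurred in 9.64% of the windows of genes called lower, in 0% of those called higher, in 3.15% of those not called and in 4.1% of all 32851 windows. GAS letters occurred in 12%, 9.72%, 13.2% and 8.3% of these sets, and the core of the interferon-stimulated response element in 8.43%, 5.56%, 5.73% and 3.44%. The Y box letters were in the windows of 8 genes called lower and 10 not called. Of the 8, H2-Aa, H2-Eb1, Cxcl9, Cxcl10 and Irf8 belong to the class II and interferon gamma lists. H2-DMa held none of the motifs. For Cd74, Ciita, H2-Ab1 and H2-Ea-ps no window was given, so these genes were not searched for any motif. These are matches of letters and were not tested.

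MHC class I presentation did not move as a block. Of 10 genes, 2 were lower, 1 was higher and 7 were not called (30% called, against 31.8% of all genes), with a median of -0.23. Both falls were in peptide supply. Tap1, a subunit of the transporter that carries peptides into the endoplasmic reticulum, spanned 9.61 to 10.23 in Control (median 10.07) and 8.24 to 9.60 in PAT3 (median 8.71), and fell by 1.24 on the log2 scale (SE 0.18, adjusted p = 7.87e-06). Psmb9, a catalytic subunit of the immunoproteasome, spanned 9.17 to 9.78 in Control (median 9.54) and 7.60 to 9.18 in PAT3 (median 8.19), with a change of -1.23 (SE 0.20, adjusted p = 3.84e-05) and 9 of 10 PAT3 values below the lowest Control. The class I heavy chain gene H2-K1 (-0.17, adjusted p = 0.478) and its light chain B2m (-0.32, adjusted p = 0.136) were not called, and the sign of H2-K1 turned to 0.017 after re-centring and that of B2m to 0.26 under quantile normalization. H2-Q10, a non-classical class I gene with near-identical relatives, was higher (0.84, SE 0.20, adjusted p = 0.00179). Its values ran from 6.12 to 7.25 in Control (median 6.67) and from 6.97 to 8.35 in PAT3 (median 7.52).

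**Figure D2:**
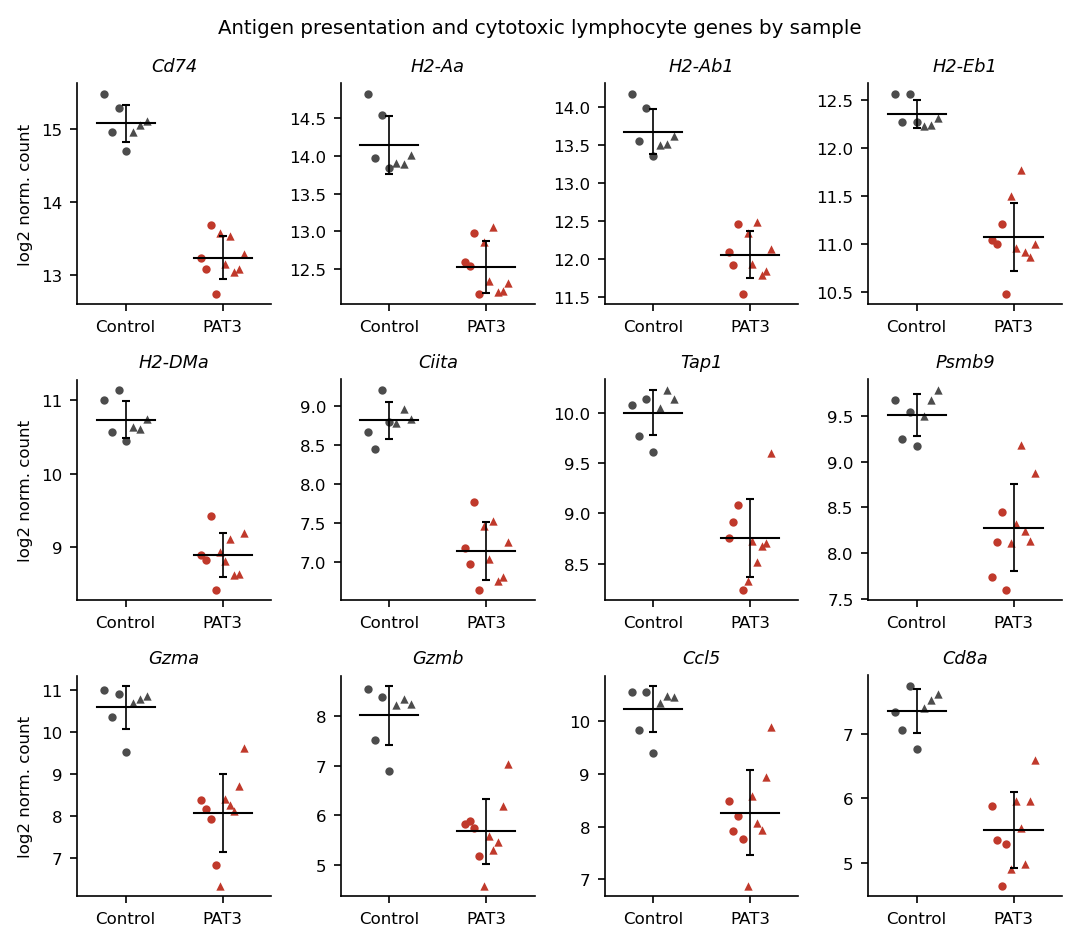
Log2 normalized counts of 12 genes in the 7 Control and 10 PAT3 mice (circles male, triangles female; horizontal line and bar, mean and SD). For Cd74, H2-Aa, H2-Ab1, H2-Eb1, H2-DMa, Ciita, Tap1 and Cd8a no PAT3 value reaches the lowest Control value, while 1 PAT3 mouse each overlaps for Psmb9, Gzma, Gzmb and Ccl5.

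The interferon gamma pathway was split between its receptor and its responding genes. Of 15 genes, 12 were called, 9 lower and 3 higher, and the median was -0.60. Ifng itself was low, with values from 2.49 to 4.15 in Control (median 3.43) and from 2.47 to 3.77 in PAT3 (median 2.71), and was not called (-0.55, SE 0.24, adjusted p = 0.0746). It was called with sample weights (adjusted p = 0.00720) and when Control replicate 4 (adjusted p = 0.0232), Control replicate 7 (0.0406), PAT3 replicate 2 (0.0314) or PAT3 replicate 7 (0.0475) was left out. Both receptor chains rose. Ifngr1, the ligand-binding chain, ran from 11.90 to 12.39 in Control (median 12.33) and from 12.05 to 13.10 in PAT3 (median 12.80; 0.58, SE 0.15, adjusted p = 0.00473), and Ifngr2, the signalling chain, from 11.11 to 12.00 and from 11.26 to 12.71 (medians 11.66 and 12.21; 0.61, SE 0.17, adjusted p = 0.00770). The kinases Jak1 (0.24, adjusted p = 0.198) and Jak2 (0.37, adjusted p = 0.112) were not called. Each was past the threshold under 3 of 31 alternatives, for Jak2 among them that without PAT3 replicate 5 (0.49, adjusted p = 0.0109).

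Downstream of the kinases, 9 genes were lower and Cxcl11 was higher. The interferon regulatory factors Irf1 (-0.63, adjusted p = 0.00181) and Irf8 (-0.53, adjusted p = 0.00154) and Socs1, a feedback inhibitor of the Jak kinases (-0.84, adjusted p = 0.000877), were below the Control mean in 10 of 10 mice each, with 9, 9 and 8 of them below the lowest Control. Tbx21, the T-bet factor of Th1 and cytotoxic cells, fell as well (-0.60, adjusted p = 0.00230). Re-centring ended the calls of Irf8 and Tbx21. Irgm1, an interferon-induced GTPase that promotes autophagy, fell without overlap (-0.52, adjusted p = 0.0198), and its call too was lost on re-centring. It was the 1 called gene of 2 in the autophagy list, whose median was -0.18.

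The 3 chemokines that share the receptor Cxcr3 went in opposite directions. Cxcl9 spanned 8.02 to 9.11 in Control (median 8.63) and 5.94 to 7.08 in PAT3 (median 6.63), and fell 3.86-fold (-1.95, SE 0.25, adjusted p = 1.32e-06). Cxcl10 spanned 6.49 to 7.60 in Control (median 6.90) and 5.84 to 6.44 in PAT3 (median 6.01), and also fell without overlap (-0.96, SE 0.18, adjusted p = 0.000214). Cxcl11 spanned 4.08 to 5.46 in Control (median 4.56) and 5.39 to 6.42 in PAT3 (median 5.89), and rose 2.38-fold (1.25, SE 0.18, adjusted p = 7.77e-06), with 9 of 10 PAT3 values above the highest Control. All 3 calls held under all 31 alternatives. Cxcr3 was not called (-0.44, adjusted p = 0.118).

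**Figure D3:**
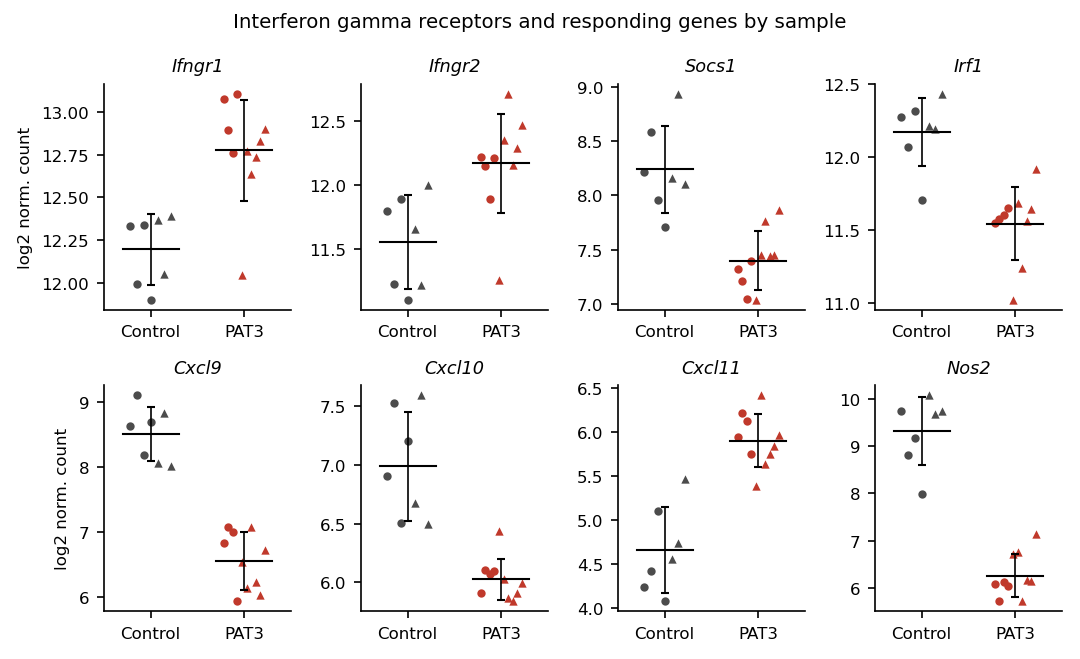
Log2 normalized counts of 8 genes of the interferon gamma pathway in the 7 Control and 10 PAT3 mice (circles male, triangles female; horizontal line and bar, mean and SD). The receptor genes Ifngr1 and Ifngr2 and the chemokine gene Cxcl11 are higher in PAT3, whereas Socs1, Irf1, Cxcl9, Cxcl10 and Nos2 are lower.

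Among 6 genes of enzymes that make reactive oxygen or nitrogen, 2 were lower and 1 higher (50% called, against 31.8% of all genes). Their median was -0.33, and Nos2 fell most of all 547 genes. This gene for the inducible nitric oxide synthase spanned 7.99 to 10.07 in Control (median 9.67) and 5.73 to 7.13 in PAT3 (median 6.15), a change of -3.05 (SE 0.26, adjusted p = 3.11e-09), or 8.26-fold. Nox1, the superoxide-producing NADPH oxidase of gut epithelium, spanned 8.01 to 9.44 in Control (median 9.02) and 5.83 to 8.57 in PAT3 (median 7.56; -1.34, SE 0.37, adjusted p = 0.00727), and 6 of 10 PAT3 values were below the lowest Control. Nox4, the constitutively active relative found in mesenchymal cells, rose from a median of 3.75 to 4.86 (0.97, SE 0.22, adjusted p = 0.00154). Ncf4, a subunit of the phagocyte oxidase, was not called (-0.45, adjusted p = 0.0623), except under 6 of 31 alternatives.

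Of 19 type I interferon and antiviral genes, 5 were called (26.3%, against 31.8% of all genes), all higher, and the median of the list was 0.19. They were the receptor genes Ifnar1 (0.35, adjusted p = 0.0271) and Ifnar2 (0.28, adjusted p = 0.0448), the virus-sensing factor Irf3 (0.48, adjusted p = 0.00615), the antiviral GTPase Mx1 (0.42, adjusted p = 0.0448) and Ifna1 (0.92, adjusted p = 0.0399), a low gene with a lowest Control value of 0.94. Only the call of Irf3 withstood leaving out each sample in turn, with adjusted p up to 0.0231. The others reached 0.0579 for Ifnar1, 0.108 for Ifnar2, 0.0973 for Mx1 and 0.109 for Ifna1. The interferon-induced gene Ifi35 was not called (0.21, adjusted p = 0.466).

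Genes of cytotoxic lymphocytes and natural killer cells fell without a single rise: 14 of 27 were lower, 13 were not called, and the median was -0.60. The granzymes, proteases delivered into target cells, changed most. Gzma ranged from 9.53 to 11.00 in Control (median 10.80) and from 6.33 to 9.62 in PAT3 (median 8.21), a 5.72-fold fall (-2.52, SE 0.37, adjusted p = 1.23e-05). Gzmb ranged from 6.88 to 8.54 in Control (median 8.23) and from 4.58 to 7.04 in PAT3 (median 5.67), a 5.02-fold fall (-2.33, SE 0.31, adjusted p = 2.41e-06). In both genes 9 of 10 PAT3 values were below the lowest Control, and the other was PAT3 replicate 10 (9.62 and 7.04), without which the changes were -2.69 and -2.48. Prf1, the pore former that admits granzymes, was lower (medians 4.41 and 3.63; -0.92, adjusted p = 0.00502).

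Ccl5, a chemokine stored by cytotoxic T cells, fell from a median of 10.46 to 8.13 (range 9.40 to 10.56 in Control and 6.86 to 9.90 in PAT3; -1.97, SE 0.31, adjusted p = 2.25e-05). PAT3 replicate 10 was again the highest, and the change without it was -2.15. Xcl1, which attracts cross-presenting dendritic cells, fell by 1.22 on the log2 scale (adjusted p = 3.21e-05). Among surface receptors, Klrd1 (CD94) spanned 6.85 to 7.43 in Control (median 6.96) and 5.35 to 6.26 in PAT3 (median 5.78), with no overlap (-1.25, SE 0.15, adjusted p = 6.32e-07). Slamf7 also fell without overlap (-1.07, adjusted p = 2.08e-05). Klrk1, the activating receptor NKG2D, changed less (-0.50, adjusted p = 0.0376) and was past the threshold under 15 of 31 alternatives, with adjusted p up to 0.0908 as samples were left out in turn.

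T cell genes fell in the same one-sided way, with 15 of 24 lower, none higher, 9 not called and a median of -0.73. Those not called included Thy1 (-0.03, adjusted p = 0.894), Cd2 (-0.73, adjusted p = 0.0509) and Cd28 (-0.41, adjusted p = 0.183). Cd3e, a chain of the T cell receptor complex, ranged from 6.80 to 7.48 in Control (median 7.26) and from 5.30 to 6.32 in PAT3 (median 5.78; -1.38, SE 0.15, adjusted p = 1.50e-07). The CD3 delta chain Cd3d (-1.27, adjusted p = 3.70e-05), the zeta chain Cd247 (-0.84, adjusted p = 0.00286) and the proximal kinases Lck (-1.09, adjusted p = 1.46e-05) and Zap70 (-0.77, adjusted p = 0.00446) fell alongside, although Zap70 was not called under quantile normalization. The coreceptors differed in size. Cd8a fell 3.58-fold, from 6.76 to 7.74 in Control (median 7.40) to 4.63 to 6.59 in PAT3 (median 5.44; -1.84, SE 0.22, adjusted p = 6.32e-07). The other CD8 gene of the list, Cd8b1, was not called (-0.73, adjusted p = 0.112). Cd4 fell 1.31-fold, from 6.40 to 7.07 (median 6.71) to 5.93 to 6.80 (median 6.26; -0.39, SE 0.15, adjusted p = 0.0448), and was past the threshold under 13 of 31 alternatives (adjusted p up to 0.104 with samples left out in turn). The difference between the coreceptors was not tested.

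Further surface molecules of T cells and intraepithelial lymphocytes fell without overlap. Cd7 spanned 7.40 to 8.20 in Control (median 8.03) and 4.90 to 7.23 in PAT3 (median 6.12; -1.80, SE 0.22, adjusted p = 7.00e-07). The scavenger-type receptors Cd6 (-1.39, adjusted p = 6.32e-07) and Cd5 (-1.31, adjusted p = 0.000663), which tune receptor signalling, and the costimulator Icos (-0.95, adjusted p = 0.00733) followed. Inhibitory receptors fell in step with these: Tigit from a median of 5.97 to 4.36 (-1.52, SE 0.19, adjusted p = 1.28e-06) and Ctla4 from 5.58 to 4.70 (-1.16, SE 0.20, adjusted p = 5.46e-05). Cd274, which encodes PD-L1, ranged from 7.16 to 8.89 in Control and from 6.16 to 6.97 in PAT3 (-1.46, adjusted p = 2.25e-05). Tcf7, the factor of naive and memory T cells, was not called (0.13, adjusted p = 0.591), and neither was Foxp3, which defines regulatory T cells (-0.29, SE 0.26, adjusted p = 0.418; medians 3.69 and 3.37). The summed normalized counts of 5 T cell markers ran from 569 to 714 in Control and from 212 to 413 in PAT3, with all 5 called lower. Of 3 natural killer markers chosen, only 1 was in the table. It was not called and was low, from 6.29 to 14.2 in Control and from 3.20 to 12.8 in PAT3. Other natural killer receptor genes, in the cytotoxic list above, were called lower in part, such as Klrd1, and none was higher. The part of T cell or natural killer cell number in these falls was not tested.

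Regulatory and IL-10 genes moved little, with 18.2% of them called against 31.8% of all genes. Of 11, 1 was lower (Ctla4) and 1 higher (Il10rb, a chain of the IL-10 receptor, 0.39, adjusted p = 0.0446, past the threshold under 12 of 31 alternatives and up to 0.0937 with samples left out in turn), and the median was -0.01.

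Receptors and ligand of the common gamma chain family diverged. Il15, which sustains intraepithelial lymphocytes and natural killer cells, rose from 6.42 to 7.22 in Control (median 6.73) to 6.67 to 8.38 in PAT3 (median 7.96; 0.96, SE 0.21, adjusted p = 0.00127), with 8 of 10 PAT3 mice above the highest Control. The receptor chain it signals through, Il2rb, fell without overlap, from 7.53 to 7.77 in Control (median 7.67) to 6.13 to 7.10 in PAT3 (median 6.60; -1.06, SE 0.14, adjusted p = 2.57e-06). The shared gamma chain Il2rg (-0.73, adjusted p = 0.00365), Il21r (-1.37, adjusted p = 0.00549), the gamma chain kinase Jak3 (-0.65, adjusted p = 0.0400, 14 of 31 alternatives, up to 0.0801 with samples left out in turn) and the cytokine Il7 (-0.48, adjusted p = 0.00774, lost on re-centring and under quantile normalization) were lower too. In all, 5 of the 15 genes of this family were lower and 1 was higher (40% called, against 31.8% of all genes), with a median of -0.25.

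Type 3 immunity, the arm of IL-17 and IL-22, had 7 of 27 genes lower and 2 higher, with a median of -0.24. The share of the list that was called, 33.3%, was near the 31.8% of all genes. Its effector cytokines were at the low end of the panel. Il17a ranged from 3.78 to 4.67 in Control (median 4.11) and from 2.24 to 3.36 in PAT3 (median 2.86), without overlap (-1.28, SE 0.25, adjusted p = 0.000283). Il17f ranged from 3.23 to 4.10 in Control (median 3.75) and from -0.32 to 4.24 in PAT3 (median 2.26; -1.45, SE 0.47, adjusted p = 0.0196), with 1 PAT3 mouse above all Controls. Its call was lost by the methods' test (adjusted p = 0.0849) and with the epithelial list mean as a covariate (0.0657). Il22 ranged from 1.83 to 4.08 in Control (median 2.52) and from -0.32 to 2.51 in PAT3 (median 1.69; -1.56, SE 0.44, adjusted p = 0.00802). Values near 0 stand for single molecules, so that these folds are imprecise.

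The transcription factor Batf (-0.88, adjusted p = 0.00154), the NF-kB cofactor Nfkbiz, which IL-17 induces (10.99 to 9.97 at the median; -1.0, adjusted p = 3.70e-05), the alarm cytokine Il1b (-0.78, adjusted p = 0.00467) and the neutrophil protein S100a9 (-0.96, adjusted p = 0.00431) fell as well. The summed counts of 4 granulocyte markers ran from 57.5 to 110 in Control and from 30.2 to 72.0 in PAT3, and S100a9 is 1 of them. Tnfsf15, the TNF relative TL1A, rose 2.04-fold without overlap, from 4.47 to 5.38 in Control (median 5.13) to 5.68 to 6.51 in PAT3 (median 6.12; 1.03, SE 0.16, adjusted p = 2.25e-05). Il6ra, the IL-6 receptor, was the other rise (0.64, adjusted p = 0.00507).

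Type 2 immunity, directed at helminths and allergens, had 3 of 17 genes called (17.6%, against 31.8% of all genes), all higher (13.9% of all genes were), with a median of 0.22. Il17rb, the receptor for IL-25, spanned 5.56 to 6.11 in Control (median 5.95) and 6.38 to 6.91 in PAT3 (median 6.65), with every PAT3 mouse above every Control (0.74, SE 0.12, adjusted p = 3.62e-05). Ccl11, the eosinophil attractant eotaxin, rose from 7.67 to 8.61 (median 8.08) to 8.27 to 9.57 (median 8.87; 0.84, SE 0.19, adjusted p = 0.00154). Kit, the receptor of mast cells and pacemaker cells, passed narrowly (0.68, adjusted p = 0.0447), under 11 of 31 alternatives and with adjusted p up to 0.0979 when samples were left out in turn.

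In the IgA pathway 7 of 11 genes were lower and 1 was higher, with a median of -0.52. This count depended on scaling. After re-centring 3 of the 11 were lower and 1 was higher, and under quantile normalization 3 were lower and none was higher. Pigr, the receptor that ferries IgA across the epithelium, spanned 15.12 to 15.88 in Control (median 15.47) and 12.75 to 15.08 in PAT3 (median 14.85). No values overlapped (-0.90, SE 0.28, adjusted p = 0.0166), although PAT3 replicate 7 lay apart at 12.75 (next 14.50), and the call was lost under quantile normalization (adjusted p = 0.0532) and by the methods' test (0.0664). Tnfrsf17, the survival receptor BCMA of plasma cells, fell without overlap, from 6.45 to 7.35 in Control (median 6.96) to 5.39 to 6.20 in PAT3 (median 5.66; -1.19, SE 0.19, adjusted p = 3.06e-05). Irf4, a factor for plasma cell differentiation (-0.93, adjusted p = 0.00275), and Ccr10, which guides IgA-secreting cells to mucosa (-0.76, adjusted p = 0.0129, lost on re-centring and under quantile normalization), were lower too.

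The falls of Prdm1, the plasma cell regulator Blimp-1 (-0.66, adjusted p = 0.0331), of the B cell survival factor Tnfsf13b (-0.46, adjusted p = 0.0355) and of the T cell help signal Cd40lg (-0.51, adjusted p = 0.0351) were past the threshold under 18 of 31, 17 of 31 and 17 of 30 alternatives, and with samples left out in turn their adjusted p reached 0.0807, 0.0925 and 0.0757. Xbp1, which drives the secretory machinery, was not called (-0.21, adjusted p = 0.162). The stromal chemokine Cxcl12 rose (0.40, adjusted p = 0.0238), but not under quantile normalization (adjusted p = 0.151) or without Control replicates 1, 6 or 7 (up to 0.0633).

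Genes of B cells and follicles were mostly not called: of 23, 2 were lower, 1 was higher and 20 did not pass, with a median of -0.33. The falls were those of Tnfrsf13b, the receptor TACI (-1.07, adjusted p = 0.0108), and Cd79b, a signalling chain of the B cell receptor (-1.26, SE 0.44, adjusted p = 0.0321). Cd79b ranged from 6.82 to 8.12 in Control and from 5.58 to 6.78 in PAT3, without overlap, but left the threshold in 5 of 17 leave-one-out fits (adjusted p up to 0.0764), by the methods' test (0.122), under quantile normalization (0.0607) and with the epithelial covariate (0.0657). The rise was that of Cd24a (0.33, adjusted p = 0.0321), a surface protein also of epithelium, which was lost in 5 of 17 such fits (up to 0.0859) and under quantile normalization (0.350). Ltbr, the lymphotoxin receptor on stroma that organizes follicles, was not called (0.25, adjusted p = 0.0585), except under 9 of 31 alternatives.

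In the gut homing list, ligand and receptor moved apart. Ccl25, which small intestinal epithelium secretes, rose from 12.19 to 13.63 in Control (median 13.32) to 13.14 to 14.31 in PAT3 (median 13.95; 0.81, SE 0.18, adjusted p = 0.00154). Its receptor Ccr9 fell from a median of 7.68 to 6.95 (-0.71, SE 0.20, adjusted p = 0.00757), and the receptor Cxcr6, which retains lymphocytes in tissue, fell without overlap from 7.11 to 6.32 (-0.76, SE 0.14, adjusted p = 0.000175). The call of Ccr9 was lost under quantile normalization. Of 7 genes in this list, 2 were lower, 1 was higher and 4 were not called (42.9% called, against 31.8% of all genes), with a median of -0.42.

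Of 15 epithelial genes, 4 were higher and 2 lower (40% called, against 31.8% of all genes), with a median of 0.39. Bst1, an ADP-ribosyl cyclase also known as CD157 and found on Paneth cells and stroma, rose most of all genes. It ranged from 5.54 to 9.0 in Control (median 7.53) and from 6.30 to 10.99 in PAT3 (median 9.37), a 3.10-fold rise with wide spread in both groups (1.63, SE 0.51, adjusted p = 0.0155). Leaving out Control replicate 4 ended its call (adjusted p = 0.0507), as did the methods' test (0.0720). Abcb1a, the xenobiotic efflux pump P-glycoprotein, ranged from 11.20 to 13.15 in Control (median 11.95) and from 11.71 to 13.90 in PAT3 (median 13.43; 1.01, SE 0.33, adjusted p = 0.0217), and its call was lost without Control replicate 2 (adjusted p = 0.0627) and by the methods' test (0.0892). The tetraspanin Cd9 also rose (0.52, adjusted p = 0.00345).

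The epithelial falls were those of Ceacam1, an adhesion molecule of the brush border, and Il18, a cytokine that enterocytes store. Ceacam1 spanned 14.59 to 15.20 in Control (median 14.98) and 12.67 to 14.75 in PAT3 (median 14.10; -1.05, SE 0.27, adjusted p = 0.00377), and was not called under quantile normalization. Il18 spanned 8.67 to 10.52 in Control (median 9.46) and 7.55 to 8.96 in PAT3 (median 8.59; -1.05, SE 0.23, adjusted p = 0.00106). Itln1, the microbe-binding lectin of goblet and Paneth cells, was not called (0.41, adjusted p = 0.112), except after re-centring (0.60, adjusted p = 0.0208) and without PAT3 replicate 4 (0.52, adjusted p = 0.0312). The sialomucin Cd164 was not called either (0.39, adjusted p = 0.103), except under 5 of 31 alternatives, among them re-centring (adjusted p = 0.0260) and leaving out PAT3 replicate 5 (0.0397) or 7 (0.0483). The summed counts of 5 enterocyte markers overlapped widely, from 36584 to 69874 in Control and from 22599 to 69171 in PAT3, and all 5 were detected in every sample. Of these markers 2 were called higher (Abcb1a and Ccl25) and 1 lower (Ceacam1), so rises and a fall offset each other in the sum. The part of enterocyte number was not tested.

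Of 30 myeloid cell genes, 5 were lower (16.7%, against 17.9% of all genes) and none higher, with a median of -0.13. Chemokines changed most. Ccl8 ranged from 7.57 to 9.65 in Control (median 8.64) and from 6.36 to 7.73 in PAT3 (median 6.91; -1.58, SE 0.36, adjusted p = 0.00164), and Ccl22, which recruits regulatory and Th2 cells, fell without overlap from a median of 6.76 to 5.68 (-1.13, SE 0.22, adjusted p = 0.000385). The integrin Itgam (CD11b) fell without overlap as well (-0.68, adjusted p = 0.00353). The scavenger receptor Msr1 (-0.46, adjusted p = 0.0155) was lost without Control replicate 2 (0.0518), on re-centring (0.128) and under quantile normalization (0.143), and the cytokine receptor chain Csf2rb (-0.45, adjusted p = 0.0435) held under 13 of 31 alternatives (up to 0.111 with samples left out in turn). Csf1r, on which macrophages depend, was not called (-0.12, adjusted p = 0.469).

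The sensors of bacteria that were called moved in different directions. Tlr4 (-0.11, adjusted p = 0.550), Tlr9 (0.15, adjusted p = 0.549) and Nod2 (-0.28, adjusted p = 0.115) were not called. Tlr5, the flagellin receptor, spanned 4.67 to 5.52 in Control (median 5.13) and 5.63 to 6.20 in PAT3 (median 5.90), with all PAT3 mice above all Controls (0.86, SE 0.17, adjusted p = 0.000334). The lipoprotein receptors fell: Tlr2 from 5.41 to 6.64 (median 6.25) to 4.24 to 5.80 (median 5.29; -1.0, SE 0.20, adjusted p = 0.000334), and its partner Tlr1 from a median of 8.59 to 7.79 (-0.68, SE 0.15, adjusted p = 0.00154). Among signalling genes, the inhibitory kinase Irak3 (0.49, adjusted p = 0.00414) and the NF-kB subunits Rela (0.41, adjusted p = 0.00644) and Nfkb2 (0.53, adjusted p = 0.00360, without overlap) rose. Of 24 genes in this list, 4 were higher, 2 lower and 18 not called, and the median was 0.04. The share called was 25%, against 31.8% of all genes. Relb, the partner of Nfkb2 in the alternative NF-kB pathway, which was in no list, rose from a median of 10.87 to 11.62 (0.83, SE 0.19, adjusted p = 0.00167).

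Of the 21 lists, that of the TGF-beta pathway had the highest share of rises, with 7 of 11 higher, 1 lower and a median of 0.48 (0.67 after re-centring). The signal transducers Smad5, from 9.57 to 10.07 in Control (median 9.70) to 9.73 to 10.64 in PAT3 (median 10.50; 0.67, SE 0.14, adjusted p = 0.000776), and Smad3, from 8.80 to 9.18 (median 8.95) to 9.03 to 9.91 (median 9.70; 0.63, SE 0.15, adjusted p = 0.00187), each had 9 of 10 PAT3 values above the highest Control. Both receptors rose, Tgfbr2 by 0.45 (adjusted p = 0.00383) and Tgfbr1 by 0.39 (adjusted p = 0.0217, and 0.0508 without Control replicate 1). The matrix protein Tgfbi (0.51, adjusted p = 0.0270), the corepressor Ski (0.51, adjusted p = 0.0286) and the ligand Tgfb3 (0.54, adjusted p = 0.0432) were higher too, but held in 14, 15 and 4 of 17 leave-one-out fits, with adjusted p up to 0.0710, 0.0705 and 0.0950. Runx3, a factor of CD8 T cell and innate lymphoid cell identity, was the fall (-1.04, SE 0.16, adjusted p = 2.25e-05, without overlap).

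Stromal and endothelial genes showed 4 rises and no fall among 11 (36.4% called, against 31.8% of all genes), with a median of 0.36. Pdgfrb, the growth factor receptor of pericytes and fibroblasts, spanned 6.58 to 7.66 in Control (median 7.26) and 7.45 to 8.33 in PAT3 (median 7.97; 0.73, SE 0.20, adjusted p = 0.00615). Cd34 (0.64, adjusted p = 0.0126), the matrix gene Fn1 (0.61, adjusted p = 0.0363, 17 of 31 alternatives, up to 0.0976 with samples left out in turn) and Cxcl12, described above, were the others. The endothelial gene Pecam1 was not called (0.36, adjusted p = 0.345). The summed counts of 2 endothelial markers ran from 441 to 728 in Control and from 247 to 1338 in PAT3. Their part in the rises was not tested.

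Most complement genes were not called (23 of 27, median 0.09), and the share called was 14.8%, against 31.8% of all genes. Cfi, the protease that inactivates C3b, fell 3.10-fold, from 5.45 to 7.34 in Control (median 6.60) to 4.04 to 5.58 in PAT3 (median 4.92; -1.63, SE 0.27, adjusted p = 4.86e-05), and C4a fell by 0.77 on the log2 scale (adjusted p = 0.00563). C9 (1.16, adjusted p = 0.00154) and the inhibitor Cd59b (0.57, adjusted p = 0.0373) were higher at low levels, with medians of 3.15 and 4.45 in PAT3, and Cd59b held in 7 of 17 leave-one-out fits (up to 0.112). Cd55, another inhibitor, was not called (0.64, adjusted p = 0.104), except after re-centring (0.83, adjusted p = 0.0477), with sample weights (0.78, adjusted p = 0.00218) and without PAT3 replicate 5 (0.88, adjusted p = 0.00227).

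**Figure D4:**
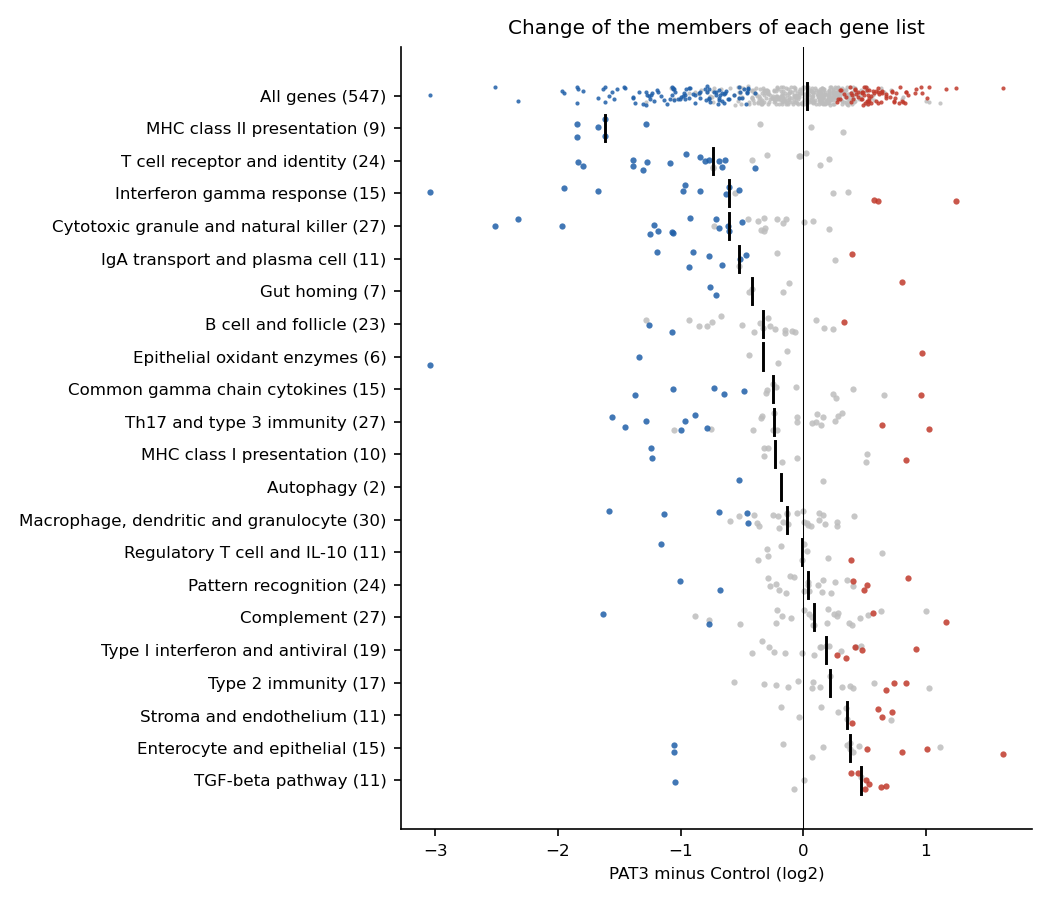
Each row is a gene list, with the number of its genes in the table in brackets, and each point is a gene at its change from Control to PAT3 (log2); blue, called lower; red, called higher; grey, not called; vertical bar, median. MHC class II (median -1.61) and T cell genes (-0.73) lie furthest to the left and TGF-beta genes (0.48) furthest to the right, against 0.03 for all genes.

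Of 219 panel genes in none of the lists, 54 were called, against 174 of all 547 genes. Among them, Socs3, an inhibitor of cytokine signalling through Stat3, had the largest fall of those at a mean of 5 or more, from 6.45 to 8.11 in Control (median 7.29) to 5.0 to 6.24 in PAT3 (median 5.78; -1.54, SE 0.20, adjusted p = 1.65e-06). Nt5e, the ectoenzyme CD73 that makes adenosine, rose from a median of 7.69 to 8.86 (0.91, SE 0.25, adjusted p = 0.00664). Ncam1, a neural adhesion molecule, rose from 7.26 to 8.03 (0.81, SE 0.20, adjusted p = 0.00309).

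The falls were shared by the PAT3 mice. Of the 98 genes called lower, between 65 and 92 lay below the lowest Control value in each mouse, and of the 76 called higher, between 36 and 70 lay above the highest Control value. These genes were chosen by this contrast, so the counts describe its evenness and test nothing. PAT3 replicate 7 had the fewest in both directions (65 and 36) and the lowest total (265500 counts), and replicate 8 had the most (92 and 70). Spread was larger in PAT3 than in Control for 366 of 547 genes.

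The sexes were compared because PAT3 held more females than Control. No gene passed the test of a difference in the PAT3 effect between females and males (limma, 0 of 547, smallest adjusted p 0.874, 27 genes at an unadjusted p under 0.05). All 174 called genes changed with the same sign in both sexes. They were chosen by the contrast over these same males and females, so this describes them and tests nothing. Nos2 changed by -2.93 in males and -3.38 in females, Gzma by -2.62 and -2.54, and Cd74 by -1.93 and -1.77. Il17f had the widest gap among the cytokines described, with -2.56 in males and -0.69 in females (unadjusted p = 0.00897, adjusted p = 0.874). With 3 and 4 Control mice per sex, the precision of such differences was low.

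**Figure D5:**
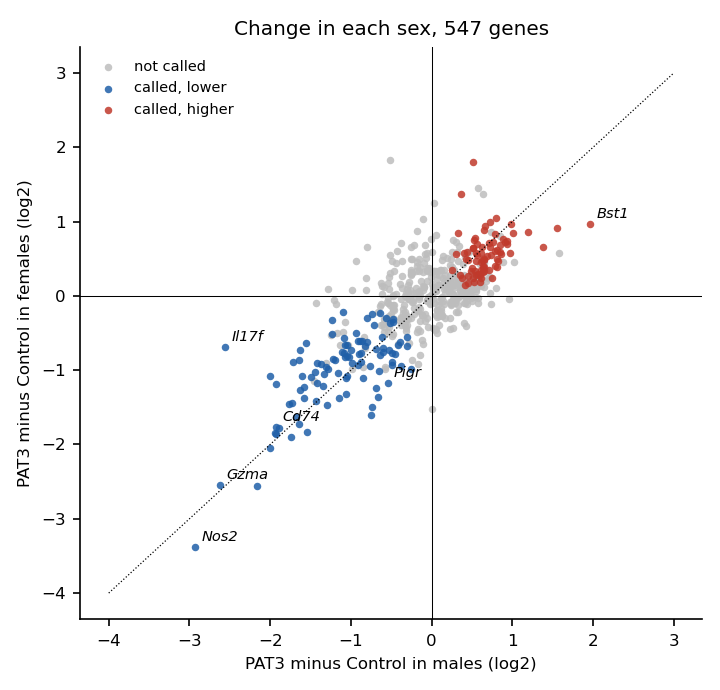
Change from Control to PAT3 in males (x axis, log2) and females (y axis, log2) for 547 genes; the dotted line marks equal change. All blue (called lower) points lie in the lower left and all red (called higher) points in the upper right of the plot. The calls were made over both sexes together, so this placing tests nothing. Il17f is at -2.56 in males and -0.69 in females.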

How the data were processed

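Total RNA from the terminal ileum of 24 mice was read on the nCounter GX mouse immunology panel. The authors normalized the molecule counts with DESeq2 (version not given in the sources used here), which divides each sample by a size factor, and deposited log2 values. The labels name TRIzol and an RNeasy column for the extraction, and the study's methods another Qiagen kit. The deposited log2 table held 547 genes. The anti-log of each value was a whole multiple of 1 step per sample, from which counts were recovered (within 0.01 counts of a whole number, largest deviation 0.000257), and 19 values were listed at 0. Depth limits genes near a log2 value of 3 or less, which rest on a few molecules. Of the symbols, 531 were current in the RefSeq table of GRCm38.p6, 14 were synonyms and 2 were unmatched.

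Groups and sex came from the sample labels. They give 10 PAT3 and 7 Control mice. A legend of the study counts fewer PAT3 and more PAT1 mice than these labels. The labels do not show which mouse is counted differently. The title number of PAT3 replicate 10 lies apart from those of the other PAT3 mice and among those of PAT1 and Control mice, though its treatment label is PAT3. Leaving out each PAT3 mouse in turn, replicate 10 included, was among the alternatives. Without replicate 10, 7 of the 117 called genes named above lost their call. Replicate numbers are names only and do not pair mice. PAT3 minus Control was tested in limma 3.58.1 (R 4.3.3; lmFit and eBayes) on the log2 values, in a fit of 3 group means over all 24 samples without covariates, a low filter or a pseudocount. Adjustment was by Benjamini-Hochberg over all 547 genes (threshold 0.05). The effect of sex was tested as the difference between the female and the male contrast in a fit of 6 means. The fit was tested on simulated data. Single values per sample were compared with two-sided exact permutation tests. The 21 lists were described by counts and medians, without a test. Alternatives were the aov and TukeyHSD test of the study's methods, other samples, covariates, centring and normalization, sample weights, voom on the recovered counts, a pseudocount of 10 counts, a filter at a mean log2 value of 5 and leaving out each sample in turn. Figures were drawn with matplotlib 3.10.9.

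The members, gene lists and motifs were chosen with earlier results of these data known. Named genes were, among called genes with a mean of at least 5, the 15 largest falls and 10 largest rises, and for each list up to 4 called members with the largest change and up to 2 others with the highest mean, together with Il17a, Il17f, Il22, Pigr, Foxp3 and H2-Ea (listed as H2-Ea-ps). Further genes were named after their values were seen, and results for some genes are not reported here.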

Additional observations from a re-analysis of the deposited data

Results flagged for a closer look

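In groups of 7 Control and 10 PAT3 mice, a value was singled out when its gap to the nearest mouse took up more of the range of its group than Dixon's 95% limit allows, which chance alone does for about 1 in 20 groups. Of 320 groups of values examined for the genes, list means and depth described above, 36 held such a mouse (11.25%), 29 of them in PAT3. PAT3 replicate 5 accounted for 12 and replicate 7 for 13.

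PAT3 replicate 5 was the lowest PAT3 mouse for genes of epithelium and of signalling. It had 6.30 for Bst1 (next 8.52), 13.14 for Ccl25, 8.67 for Cd55 (next 10.22), 11.46 for H2-K1 (next 12.43), 12.05 for Ifngr1, 10.14 for Jak2, 9.48 for Ifi35, 10.36 for Il10rb and 10.06 for Ltbr. Its mean over the enterocyte and epithelial list was 9.94 and that over the interferon gamma list 8.22. It was the highest PAT3 mouse for Cxcl10 (6.44).

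PAT3 replicate 7, with a log2 total of 18.02 (next 18.66), was the lowest PAT3 mouse for Pigr (12.75, next 14.50), Kit (7.03), Tlr2 (4.24), Tgfbr1 (9.13), Smad5 (9.73), Ski (8.54) and Pecam1 (7.65, next 8.98), and for the means of the TGF-beta list (8.27) and the autophagy list (9.08). It was the highest for the means of the B cell and follicle list (6.24, next 5.67), the regulatory T cell list (6.53) and the IgA list (7.63).

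Single values stood apart in other mice. PAT3 replicate 4 was lowest for Itln1 (15.10) and highest for Tlr1 (8.66), and PAT3 replicate 10 was highest for Il21r (4.92) and lowest for Il6ra (7.29). Among Controls, replicate 4 was lowest for Gzma (9.53), Nfkbiz (10.38) and Xbp1 (12.17), replicate 3 highest for Cd9 (11.89) and Smad5 (10.07), replicate 2 lowest for Tnfsf15 (4.47) and replicate 7 lowest for the mean of the complement list (6.50).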

How the results depend on the processing

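All 117 called genes named above kept their direction in all alternatives run for them, and 36 of them also stayed past the threshold in each. Of 174 called genes, 40 did so under all 31 alternatives. The number of calls was 57 with females alone (10 higher, 47 lower), 122 with males alone (44 higher), 287 with sample weights (146 higher), 138 by the methods' test, and 148 to 211 with samples left out in turn. Re-centring gave 152 higher genes, and 115 were higher with PAT3 replicates 5 and 7 both left out, an alternative chosen after seeing the data. Genes lying wholly above Control numbered 23 after re-centring, 21 after quantile normalization, 53 without PAT3 replicates 5 and 7, and 11 to 30 with samples left out in turn (19 without PAT3 replicate 5, 30 without replicate 7), and those wholly below numbered 24 after re-centring and 55 without both. No gene differed between the sexes in any fit run. Of the 20 named genes that were not called, 15 passed the threshold in the same direction under at least 1 alternative (53 values), and 5 changed sign. H2-DMb2 was at 0.19 with the B cell list as a covariate, H2-Ob at -0.030 in females, at -0.11 with sample weights, at -0.084 without PAT3 replicates 5 and 7 and between -0.045 and 0.22 with samples left out in turn, B2m at 0.26 after quantile normalization and H2-K1 at 0.017 after re-centring. Csf1r was at 0.066 after re-centring and 0.023 with the epithelial list as a covariate. The causes were not tested. No paired analysis was possible because the replicate numbers only follow the order of the samples. Depth limits the cytokine genes, whose values rest on a few molecules.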
